A study of Mus musculus with 4 samples.

Results

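A set of 40 genes of the actin cytoskeleton was examined in macrophages grown from mouse blood monocytes. They were chosen by symbol, from a list of actin itself and of the proteins that build, cap, bundle and anchor its filaments, and the row on the primary chromosome was taken for each. All 40 were found among the 32617 genes of the table, and 39 passed the filter on low counts. The exception was Fscn1. There were 4 mRNA libraries in 3 groups. M-CSF macrophages (1 library) were monocytes of C57BL/6J mice aged 10 to 16 weeks, selected for CD11b and cultured, over 6 or 7 days, in M-CSF at 30 ng/ml, the growth factor that turns monocytes into macrophages. Classically activated macrophages (CAM, 1 library) also received LPS, a bacterial cell wall component, at 500 ng/ml and IFNγ, a cytokine of T and NK cells, at 20 ng/ml. Peptide-treated CAM (2 libraries) received mML56 as well, a peptide of residues 1 to 56 of the membrane protein Ninj1 that imitates its soluble form; the labels used here give no dose, and the strain label of these libraries reads C57BL/7J. M-CSF was common to all groups, blood of 60 mice was pooled as each experiment needed, and nothing states whether each library had its own culture. All p-values rest on how far the pair of peptide libraries lay apart, a spread that may be purely technical.

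Actin monomers join into filaments that push the cell edge forward, form the phagocytic cup and hold adhesions in place. The Arp2/3 complex starts new filaments as branches on old ones, and proteins of the WASP family switch it on. Profilin and thymosins hold or deliver monomers, cofilin and gelsolin cut filaments, capping proteins stop their growth, and crosslinkers, myosin and the ERM proteins tie the network together and to the membrane. Macrophages change shape and motility when they are activated, and their actin network is built around podosomes, small adhesive foci. The factor SRF, with its actin-sensing partners of the MRTF family, switches on actin genes through a sequence called the CArG box.

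The libraries held 10334062 to 12842750 estimated counts, and the 40 genes took 1.06% of them in M-CSF (95% Wilson interval 1.05 to 1.061), 1.37% in CAM (1.364 to 1.378), and 1.08% and 1.06% with the peptide (1.071 to 1.082 and 1.057 to 1.069). These intervals cover counting error only. All 12 macrophage markers had counts in every library. Summed over the list, in CPM (counts brought to a common library size after TMM scaling), they stood at 28900 in M-CSF, 8380 in CAM, and 7460 and 6210 with the peptide, with 4 markers higher and 7 lower in CAM than in M-CSF. Lyz2 held most of the M-CSF sum (20860, 4554, 2837 and 2370 CPM in that order of libraries). The 4 higher markers were Adgre1, Itgam, Fcgr1 and Marco. Platelet markers, of a cell rich in actin proteins, summed to 78 CPM in M-CSF, 8.22 in CAM, and 16.8 and 17.4 with the peptide. Gp1bb was at 0 in all libraries. Pf4 carried that sum (74.2, 2.06, 11.8 and 8.64 CPM), while Gp6, Tubb1 and Itga2b were not lower in CAM than in M-CSF. B cell markers summed to 113, 2.38, 1.29 and 2.16 CPM in the same order, with Pax5 at 0 and Ighm at 110 CPM in M-CSF and at most 0.499 CPM in the others. Neutrophil markers summed to 188, 101, 269 and 279 CPM, most of it Csf3r (169, 70, 254 and 260 CPM), with S100a9, Ly6g and Retnlg at 0, and T and NK markers to at most 5.95 CPM, with Cd3e and Cd3g at 0. Fibroblast, smooth muscle and endothelial markers summed to 38.5, 97.3, 122 and 131 CPM, and Kdr carried that rise (11.9, 58.9, 95 and 90 CPM), while Col1a1 and Col1a2 were at or below 1.56 CPM in every library. Other markers of that list differed at low levels. Dcn was at 0, 0, 3.78 and 7.06 CPM, Tagln at 2.72, 10.4, 0.774 and 1.5 CPM, and Cdh5 at 0.194, 1.62, 0 and 0 CPM. Lars2 and Gm15662 together took 6.4%, 14.1%, 10.5% and 7.79% of the counts in that order of libraries, and mitochondrial genes 6.08%, 1.63%, 1.32% and 1.01%. The part of these cells and of this difference in library make-up in the values below was not tested. In such bulk samples fewer cells of a type and less RNA per cell cannot be told apart.

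Between CAM and M-CSF macrophages the actin genes moved both ways. The largest called rises, apart from that of Actg1, were in Capg, a calcium-regulated capping protein of macrophages, from 37.5 to 325 CPM, and in Tmsb10, a thymosin that holds actin monomers, from 30.3 to 115 CPM. Flna, the crosslinker filamin A, and Actr2, the Arp2 subunit, followed at 3.71 and 3.51 times their M-CSF levels. Arpc1a, another subunit of the same complex, fell from 18.9 to 3.36 CPM. Of 39 tested genes 14 rose and 9 fell (edgeR quasi-likelihood test, adjusted p under 0.05), against 21.4% and 23% of all 14104 tested genes. Their share past the threshold in either direction was 59%, against 44.4% of all tested genes, and their median log2 fold change was 0.08, against -0.07 for all genes. With library size only as the scaling, the median of all genes moved to -0.55, the share of calls that were higher in CAM went from 48.2% to 28.6%, and 12 actin genes rose and 16 fell. Under both scalings 21 of the 39 lay above the median of all genes. This count could hardly differ, because the change of scaling shifts all genes by nearly the same amount. DESeq2's Wald test called 3 of the 39 as lower, and with an offset for GC content and length 15 rose and 2 fell. Each group had 1 library, so the fit takes the spread of the peptide pair for each of them. At least 2-fold differences, with no test, were higher in 14 and lower in 3 of the 39, against 21.4% and 26.3% of all genes, and with library size only they were higher in 7 and lower in 12.

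Between peptide-treated and untreated CAM, Lcp1, Actr2 and Flna were among the genes that fell, and Wasf2, Coro1b and Rdx among those that rose. Lcp1, the leukocyte bundling protein L-plastin, stood at 2207 CPM in CAM and 927 ± 44.1 CPM (SD, n = 2) with the peptide, and Actr2 at 1214 and 476 ± 64 CPM. Wasf2, the WAVE2 protein that activates Arp2/3 at the leading edge, stood at 63.5 and 184 ± 14.4 CPM, and Rdx, the membrane linker radixin, at 126 and 263 ± 0.676 CPM. Of the 39 tested, 10 rose and 8 fell, against 20.6% and 17.1% of all tested genes, with 46.2% past the threshold in either direction against 37.7%. The median log2 fold change was 0.05 in both sets. With the offset for GC content and length 6 rose and 12 fell, and the medians were -0.27 for the actin genes and 0.07 for all genes. At least 2-fold differences were higher in 6 and lower in 4 of the 39, against 20.2% and 16.7% of all genes. The peptide pair differed by more than sampling noise over all genes (chi-square 203859 on 13209 degrees of freedom), but 38 of the 39 lay within 2-fold of each other, with a median fold of 1.15.

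Against M-CSF macrophages, peptide-treated CAM had 13 higher and 5 lower actin genes of 39, where 22.1% and 19% of all tested genes passed. In either direction 46.2% passed, against 41.2%. At least 2-fold differences were higher in 9 and lower in 3, against 18.3% and 20.2% of all genes, and with library size only the counts were 5 and 5. The median was 0.31, against -0.08 for all genes. With library size only the counts were 11 and 11, and the median of the actin genes was -0.08 against -0.46 for all genes. The comparisons share libraries, so values are set side by side below and no overlap between them is given as a result.

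**Figure D1:**
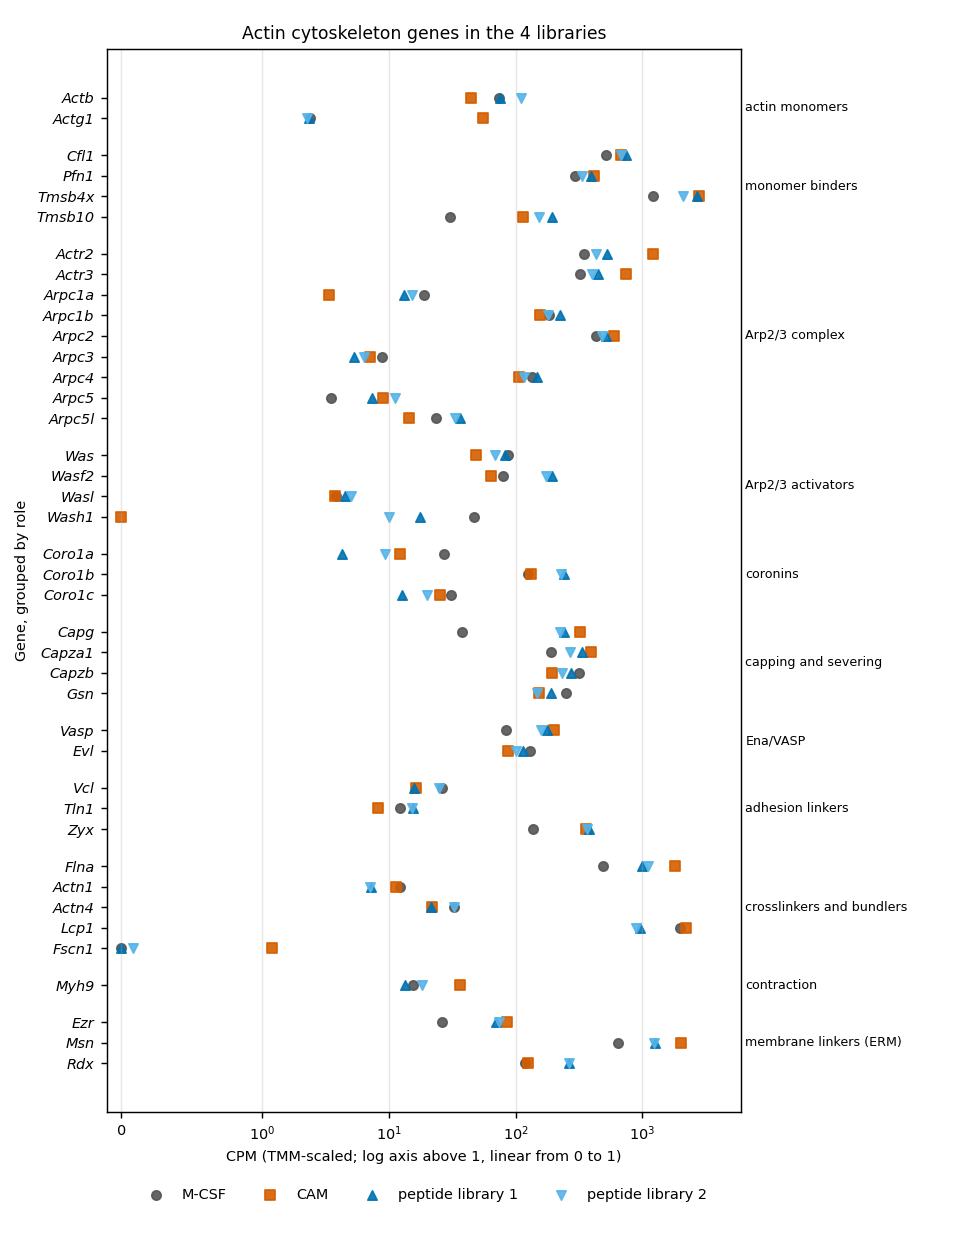
Level of each of the 40 genes (vertical axis, grouped by role) in CPM on the horizontal axis, which is logarithmic above 1 and linear from 0 to 1; each point is 1 library. Capg and Ezr are lowest in M-CSF, Actr2, Flna and Msn are highest in CAM, and Wasf2 and Rdx are highest in both peptide libraries.

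**Figure D2:**
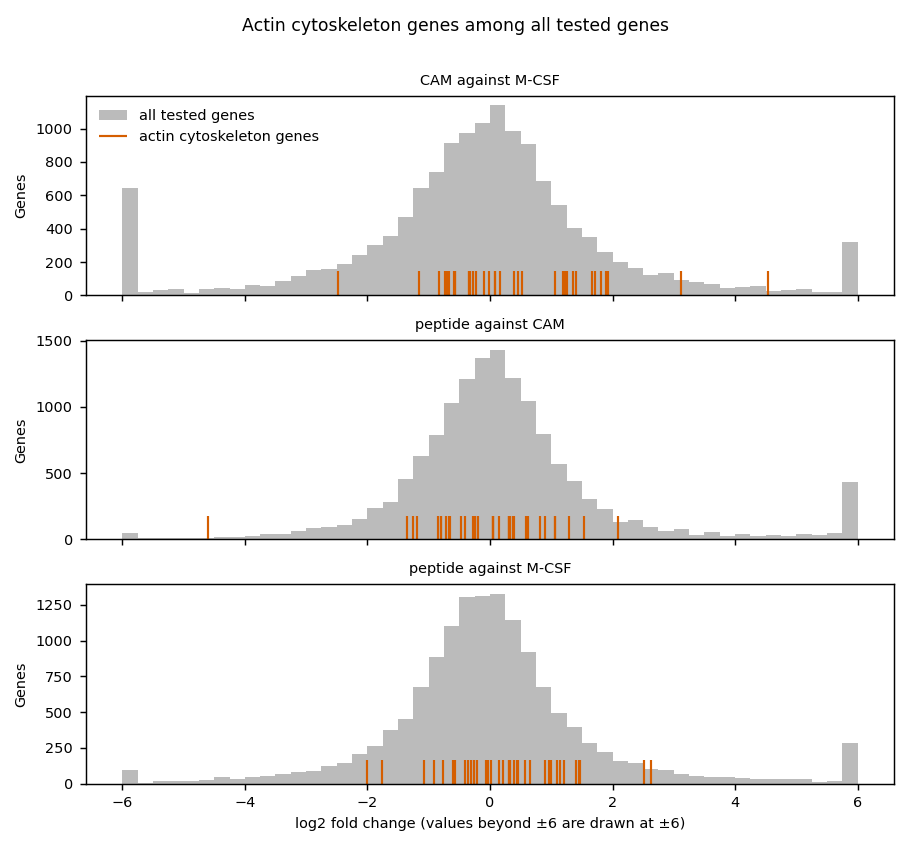
Histograms of the log2 fold change of all 14104 tested genes in each comparison, with a vertical tick for each actin gene (Wash1, listed at 0 in CAM, is left out where CAM is compared). Most ticks lie within 2 log2 units of 0, and Actg1 stands apart at 4.53 and -4.60 in the upper and middle panels.

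The cytoplasmic actins themselves were the least certain members. Actb, β-actin (ENSMUSG00000029580, mm10 chromosome 5, 142903115 to 142906754), was at 74.1, 44.4, 75.1 and 109.9 CPM, given here and below for M-CSF, for CAM, then for peptide libraries 1 and 2. Its level was lowest in CAM, with a log2 fold change of -0.74 (SE 0.251, edgeR adjusted p = 0.0293) against M-CSF and of 1.06 (SE 0.227, adjusted p = 0.00298) for peptide against CAM. DESeq2 did not call the first (adjusted p = 0.139). Actg1, γ-actin (ENSMUSG00000062825, chromosome 11, 120345690 to 120348542), was at 2.4, 55.6, 2.32 and 2.24 CPM. It was high in the lone CAM library and low in the others, a log2 fold change of 4.53 (SE 0.343, adjusted p = 2.68e-07) on activation and of -4.60 (SE 0.269, adjusted p = 3.34e-07) for peptide against CAM. A change this large rests on 514 estimated counts in 1 library against 27.1 to 36.7 in the others.

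Actin genes share sequence with many copies in the genome, and an estimator that divides shared reads can move them between rows. In the GENCODE M21 transcripts, 23.6% of the stretches of 31 bases found in Actb also occur in other genes, on either strand. The share was 40.2% for Actg1. For Actg1 they lie in pseudogenes such as Gm12715 (36.6% of its stretches), Gm8399 (29.4%) and Actg-ps1 (22.5%), and none of these rows held more than 5.1 counts in a library. Adding the 4 such rows in the table with over 10% left Actg1 at 45, 518, 37 and 28 counts and a log2 fold change of 4.26 (adjusted p = 5.69e-07) in CAM against M-CSF. For Actb, 15.2% of the stretches lie in Lrrc58, whose row held 2191 to 2863 counts, more than Actb itself. Summed with that row, Actb went the other way in CAM against M-CSF (log2 fold change 0.62, adjusted p = 0.0175) and was at -0.28 for peptide against CAM (adjusted p = 0.189), a sum that also holds the reads of Lrrc58 itself. Rows with over 100 counts also shared over 10% of the stretches of 4 other actin genes, Ap3m1 for Vcl (25.3%), Pdap1 for Arpc1b (17.2%), Snx32 for Cfl1 (14.3%) and Ttll3 for Arpc4 (10.8%). The pseudogene Gm15725, with 9.82% of the stretches of Actb, held 110, 122, 140 and 111 counts in M-CSF, CAM and the peptide libraries. Its share was under 10%, so it was not added to Actb. Of the 40 genes, 11 shared over 10% and 11 under 1%. The table also lists 1 transcript length per gene, 241 bases for Actb and 326 for Actg1, where the longest coding transcripts have 1920 and 1952. The listed length was under 50% of the longest for 12 of the 40, these and Arpc1a, Arpc1b, Arpc2, Arpc5l, Wasf2, Wasl, Coro1b, Tln1, Zyx and Myh9. For Tln1 it was 364 of 8393 bases and for Myh9 723 of 7433. Whether reads of the longer transcripts were counted was not tested, which bears on the values of all 12.

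Per kilobase of the longest coding transcript, Tmsb4x was the highest of the 40 in every library, at 1410 CPM per kb in M-CSF, 3250 in CAM, and 3120 and 2400 with the peptide. Actb stood at 38.6, 23.1, 39.1 and 57.3 CPM per kb, below its monomer binders Cfl1 (221, 290, 315 and 286) and Pfn1 (339, 485, 460 and 388). Lcp1 was the second highest in M-CSF (511) and CAM (575), while Pfn1 was second in both peptide libraries. Such levels depend on the transcript chosen for each gene, and Actb is known as one of the most abundant mRNAs of most cells. Whether the low value here is the level of the mRNA was not tested.

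Promoters are shown for the genes whose windows hold a CArG box, the element that SRF binds, and for Actr2, the Arp2/3 subunit with the largest called rise, whose window holds a match to the kappaB consensus of NF-kB. RefSeq windows on GRCm38.p6 of 250 bases before to 50 after a gene's start were matched for 37 of the 40 genes; Actb, Arpc5l and Coro1b were without one. Searched on both strands, the CArG box was found in 3 of the 37 (Actg1, Arpc4 and Vcl), against 1.81% of all genes with a window. The kappaB consensus was found in 3 of the 37 (Actr2, Coro1c and Rdx, the last with overlapping matches), against 6.55%. Coro1c and Rdx had no call in CAM against M-CSF (log2 fold changes -0.27 and 0.08). Whether NF-kB acts on Actr2 in these cells was not tested. Capitals mark the match in each sequence, written on the strand of the gene. The windows lie at chr11:120348446-120348745 (minus strand) for Actg1, chr14:20929148-20929447 (plus) for Vcl, chr6:113377863-113378162 (plus) for Arpc4 and chr11:20112902-20113201 (minus) for Actr2.
Actg1: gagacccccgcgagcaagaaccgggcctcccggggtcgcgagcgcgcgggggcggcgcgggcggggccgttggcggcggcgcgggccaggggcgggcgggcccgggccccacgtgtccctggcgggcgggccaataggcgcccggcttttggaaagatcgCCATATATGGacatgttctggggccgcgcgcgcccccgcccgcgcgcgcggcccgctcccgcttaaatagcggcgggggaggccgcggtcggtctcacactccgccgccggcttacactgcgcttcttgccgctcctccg
Vcl: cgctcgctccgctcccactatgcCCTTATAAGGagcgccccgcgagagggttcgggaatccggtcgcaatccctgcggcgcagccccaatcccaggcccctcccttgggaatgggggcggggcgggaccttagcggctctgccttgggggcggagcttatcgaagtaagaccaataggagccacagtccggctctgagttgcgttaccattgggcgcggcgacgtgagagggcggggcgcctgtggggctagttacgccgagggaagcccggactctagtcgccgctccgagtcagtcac
Arpc4: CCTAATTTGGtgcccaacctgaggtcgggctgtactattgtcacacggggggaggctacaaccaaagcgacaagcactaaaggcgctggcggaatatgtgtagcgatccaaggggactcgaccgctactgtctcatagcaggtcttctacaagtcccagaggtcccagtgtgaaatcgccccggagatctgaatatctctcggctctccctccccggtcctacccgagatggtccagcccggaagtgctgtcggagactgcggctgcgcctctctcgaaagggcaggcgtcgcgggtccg
Actr2: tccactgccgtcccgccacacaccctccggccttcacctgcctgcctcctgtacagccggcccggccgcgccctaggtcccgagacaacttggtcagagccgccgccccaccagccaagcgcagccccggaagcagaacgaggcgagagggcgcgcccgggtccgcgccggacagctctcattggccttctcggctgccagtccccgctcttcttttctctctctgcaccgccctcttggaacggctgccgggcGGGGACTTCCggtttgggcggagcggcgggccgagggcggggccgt
The 3 genes with a CArG box did not move alike. Actg1 is given above. Vcl, the adhesion protein vinculin, was at 26.2, 16.5, 15.9 and 25 CPM in M-CSF, CAM and peptide libraries 1 and 2. Arpc4 was at 135, 106, 147 and 117 CPM in that order. With TMM scaling neither passed in any comparison. With library size only, Vcl (-1.15) and Arpc4 (-0.82) passed as lower in CAM than in M-CSF. Arpc4 then also passed for peptide against M-CSF (-0.43). Srf stood at 30.1, 31.4, 49 and 46 CPM, higher with the peptide than in CAM (log2 fold change 0.60, SE 0.2, adjusted p = 0.0319). Mkl1, which encodes the partner MRTF-A, went from 183 CPM in M-CSF to 69 in CAM (-1.41, SE 0.202, adjusted p = 8.56e-05) and stood at 126 and 108 with the peptide (0.76 against CAM, SE 0.179, adjusted p = 0.00539). Of the 3 tested SRF and MRTF genes, 0 rose and 1 fell in CAM against M-CSF, 2 rose and 0 fell for peptide against CAM, and 1 rose and 1 fell for peptide against M-CSF.

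Among the monomer binders, both thymosins rose on activation. Tmsb4x, thymosin β4, was at 1216, 2812, 2697 and 2074 CPM, in the same order of libraries, and Tmsb10 at 30.3, 115, 192 and 154 CPM. All activated libraries lay above M-CSF for both, with log2 fold changes of 1.21 (SE 0.259) and 1.93 (SE 0.219) in CAM. Tmsb10 was the one monomer binder past the threshold for peptide against CAM (0.59, SE 0.184, adjusted p = 0.0235), a call that DESeq2 did not make (adjusted p = 0.0933) and whose value fell to -0.01 with the offset for GC content and length. Cfl1, the severing protein cofilin, was at 520, 682, 741 and 672 CPM and Pfn1, profilin, at 292, 418, 396 and 334 CPM, and neither passed in any comparison.

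Of the 9 genes of the Arp2/3 complex, 3 rose on activation and 2 fell, where 21.4% and 23% of all tested genes did. Actr2 (ENSMUSG00000020152, chromosome 11, 20062304 to 20112913), one of the actin-like subunits that seed the branch, was at 346, 1214, 521 and 431 CPM. Actr3, the other actin-like subunit, was at 321, 736, 443 and 401 CPM. For both, CAM stood above all other libraries. Their log2 fold changes were 1.81 (SE 0.22) and 1.199 (SE 0.202) in CAM against M-CSF, -1.35 (SE 0.179) and -0.80 (SE 0.168) for peptide against CAM, and 0.46 and 0.40, not past the threshold, for peptide against M-CSF. Arpc1a, a scaffold subunit, ran the other way, at 18.9, 3.36, 13.2 and 15.3 CPM, with a log2 fold change of -2.49 (SE 0.356) in CAM and 2.08 (SE 0.331) for peptide against CAM. Its paralog Arpc1b, the more abundant form here per kilobase as well (59.2 against 11.6 CPM per kb in M-CSF), was at 184, 157, 225 and 180 CPM and passed in no comparison.

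The other alternative pair of subunits, Arpc5 and Arpc5l, also moved apart on activation. Arpc5 was at 3.5, 8.98, 7.39 and 11.1 CPM (log2 fold change 1.36, SE 0.434, adjusted p = 0.022), and Arpc5l at 23.5, 14.3, 36.5 and 33.5 CPM (-0.71, SE 0.262, adjusted p = 0.0411). With DESeq2 neither call held (adjusted p = 0.251 and 0.336). Arpc5l was higher in both peptide libraries than in CAM (1.29, SE 0.238, adjusted p = 0.00113), while Arpc5 was at 0.05 and not past the threshold. Arpc2, which with Arpc4 forms the core of the complex, was at 432, 592, 517 and 483 CPM, and Arpc3, an outer subunit, at 8.88, 7.04, 5.33 and 6.32 CPM; neither passed in any comparison.

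Of the 4 activators of Arp2/3, 2 fell on activation, where 23% of all tested genes did, and 3 rose for peptide against CAM, where 20.6% did; Wash1, whose 0 in CAM is uncertain, is 1 of them in each. Wasf2 (ENSMUSG00000028868, chromosome 4, 133130505 to 133199756) was at 79.4, 63.5, 194 and 174 CPM. Both peptide libraries lay above M-CSF and CAM, with log2 fold changes of 1.54 (SE 0.18, adjusted p = 4.79e-05) against CAM and 1.21 (SE 0.175) against M-CSF. Was, the WASP protein of blood cells whose loss causes an immunodeficiency, was at 87.3, 48.9, 82.2 and 69.1 CPM, lowest in CAM (-0.84, SE 0.208, against M-CSF and 0.63, SE 0.185, for peptide against CAM). DESeq2 gave it adjusted p = 0.0643 and 0.121 in these comparisons. Wash1, which activates Arp2/3 on endosomes, was listed at 0 in CAM, against 47 CPM in M-CSF and 17.6 and 10.1 with the peptide. Such a 0 may be an estimate that failed, so no fold is given, and it is counted among the genes that fell on activation and rose with the peptide. Wasl, the WASP relative of most tissues, was at 3.82, 3.79, 4.47 and 4.99 CPM and passed in no comparison.

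The coronins, which remove Arp2/3 branches and recruit cofilin, differed by member. Coro1b was at 125, 132, 239 and 226 CPM, higher in both peptide libraries than in CAM (0.82, SE 0.169, adjusted p = 0.0024) or M-CSF (0.89, SE 0.168). With the offset for GC content and length the first value was 0.27 (adjusted p = 0.224). Coro1b also has a row on a patch scaffold with the same estimated counts, so each row holds an equal share of its reads. Summing the rows gave 3869, 2442, 5550 and 5450 counts and the same calls. Coro1a, the coronin of leukocytes, was at 27.4, 12.2, 4.3 and 9.31 CPM, lower in CAM (-1.16, SE 0.414, adjusted p = 0.0363) and in the peptide libraries (-2.01, SE 0.344, adjusted p = 0.000384) than in M-CSF. It was the one gene of the 39 whose peptide libraries lay 2.16-fold apart, and DESeq2 did not call its CAM value (adjusted p = 0.265). Coro1c was at 30.7, 25.4, 12.6 and 19.9 CPM and passed against M-CSF alone, in the peptide libraries (-0.92, SE 0.265, adjusted p = 0.0139), with DESeq2 at adjusted p = 0.177.

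Capping and severing genes moved in opposite directions on activation. Capg (ENSMUSG00000056737, chromosome 6, 72544391 to 72562983) was at 37.5, 325, 242 and 223 CPM, with a log2 fold change of 3.11 (SE 0.207, adjusted p = 8.01e-08) in CAM and of 2.63 (SE 0.19) with the peptide against M-CSF. The peptide libraries lay below CAM by a log2 value of -0.48 (SE 0.161, adjusted p = 0.0327), a call lost with DESeq2 (adjusted p = 0.139). Capza1 and Capzb encode the α and β chains of 1 heterodimer, CapZ, yet Capza1 rose on activation (1.06, SE 0.209) from 190 to 396 CPM and Capzb fell (-0.71, SE 0.201) from 316 to 193 CPM. The peptide libraries held Capza1 at 331 and 269 CPM and Capzb at 276 and 233 CPM, neither past the threshold against CAM. Capza2, the gene of another α chain, counted below with the WASH complex, was at 20.4, 75.4, 34.9 and 37.5 CPM. Its log2 fold changes were 1.89 (SE 0.225) in CAM against M-CSF and -1.06 (SE 0.183) for peptide against CAM. The Capzb call was lost with the offset (-0.54, adjusted p = 0.0583). For Capza1, 70.2% of the 31-base stretches occur in other genes, mostly in the pseudogene Gm3608, whose row held 4.05 to 21.7 counts. Gsn, the severing protein gelsolin, was at 250, 153, 190 and 148 CPM, lower in CAM (-0.71, SE 0.212, adjusted p = 0.0156), with DESeq2 at adjusted p = 0.0623.

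**Figure D3:**
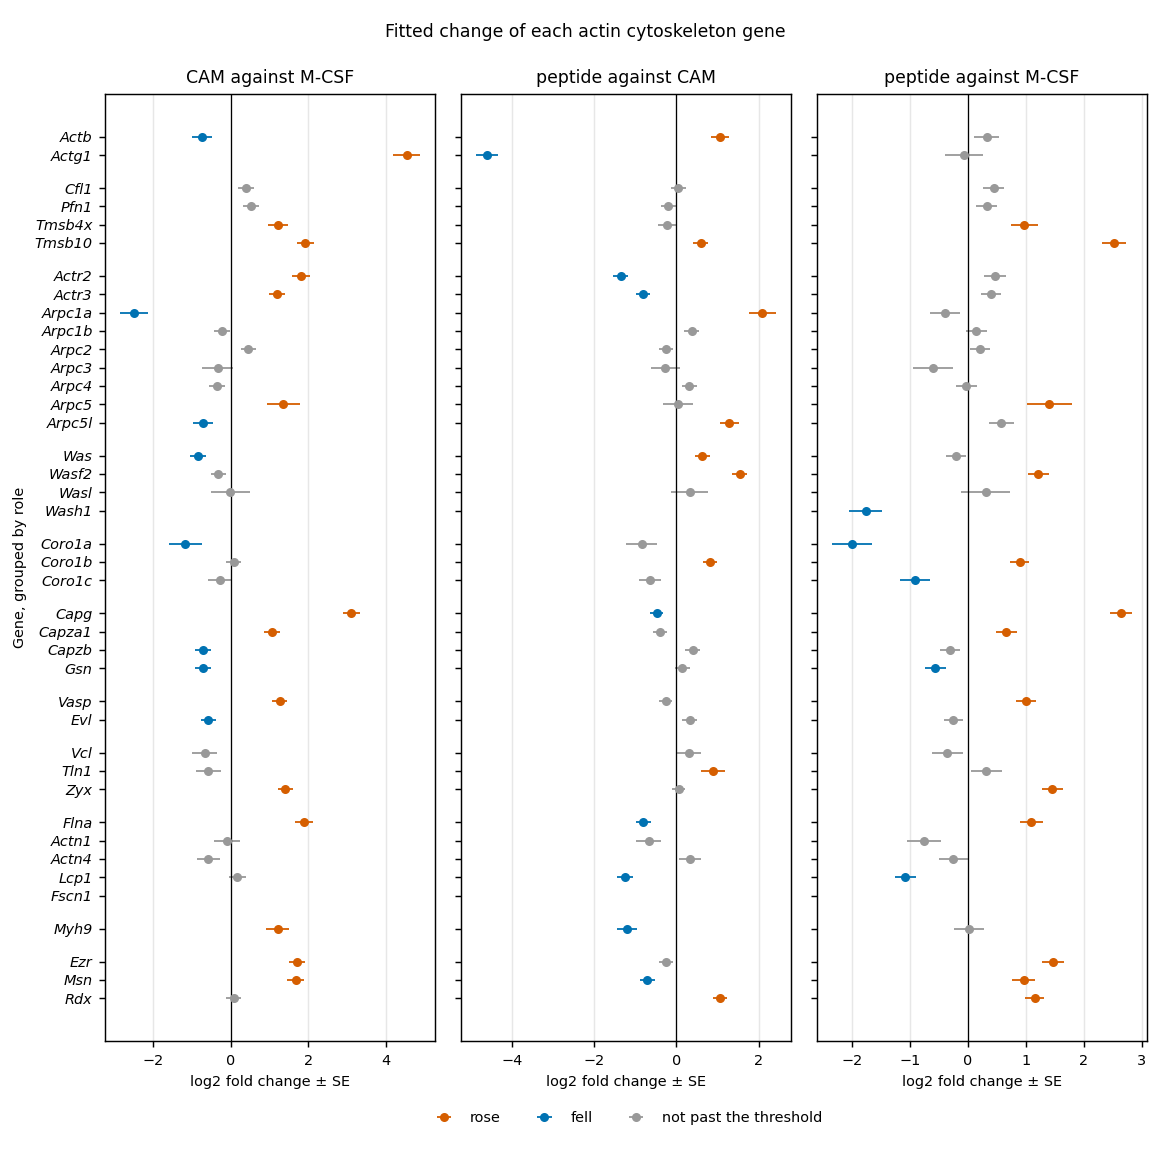
Fitted log2 fold change (horizontal axis, with bars of 1 standard error) of each gene in the 3 comparisons, coloured by the edgeR call; Fscn1 was not tested and Wash1 is not drawn where CAM, in which it is listed at 0, is compared. Within roles the colours are mixed, as for Capza1 (1.06) and Capzb (-0.71, not called with the offset for GC content and length) in CAM against M-CSF.

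The elongation factors Vasp and Evl, relatives that help filaments grow at adhesions, also diverged. Vasp was at 83.7, 201, 177 and 159 CPM, a rise of 1.26 (SE 0.194, adjusted p = 0.000158) on activation. Evl was at 129, 86.6, 115 and 101 CPM, lower in CAM by -0.58 (SE 0.195, adjusted p = 0.0291), a call that did not hold with DESeq2 (adjusted p = 0.183) and whose value was 0.04 with the offset. Neither passed for peptide against CAM. Of the adhesion linkers, Zyx, the LIM protein zyxin that gathers at strained filaments, was at 136, 361, 380 and 368 CPM, with every activated library above M-CSF (1.41, SE 0.194, adjusted p = 6.3e-05). Tln1, talin, which switches on integrins, was at 12.3, 8.23, 15.5 and 15.1 CPM and passed for peptide against CAM alone (0.89, SE 0.288, adjusted p = 0.0271), with DESeq2 at adjusted p = 0.301.

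Of the crosslinkers and bundlers, Flna rose on activation and Flna and Lcp1 fell with the peptide. Flna (ENSMUSG00000031328, chromosome X, 74223461 to 74249820) was at 492, 1823, 987 and 1106 CPM, with log2 fold changes of 1.89 (SE 0.225, adjusted p = 1.7e-05) on activation, -0.80 (SE 0.183, adjusted p = 0.00447) for peptide against CAM and 1.09 (SE 0.198) for peptide against M-CSF. Both peptide libraries thus lay between M-CSF and CAM. Lcp1 (ENSMUSG00000021998, chromosome 14, 75131101 to 75230842) was at 1964, 2207, 958 and 896 CPM, with no call between M-CSF and CAM (0.17, SE 0.222) and lower in both peptide libraries than in either (-1.25, SE 0.186, adjusted p = 0.000255, against CAM). Actn1 and Actn4, the α-actinins of non-muscle cells, were at 12.2, 11.5, 7.22 and 7.15 CPM and at 32.4, 21.8, 21.6 and 32.7 CPM. With TMM scaling neither passed in any comparison. Actn1 passed for peptide against M-CSF with RLE size factors (-0.73), with library size only (-1.16) and with the compared groups only (-0.76). Actn4 passed in CAM against M-CSF with library size only (-1.05). Fscn1, fascin, which bundles filaments in filopodia and is known from dendritic cells, had 0.28, 11, 0 and 1.47 estimated counts, too few to pass the filter on low counts.

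Myh9, the heavy chain of non-muscle myosin IIA, the motor of contraction, was at 15.6, 36.2, 13.3 and 18.2 CPM. CAM lay above the others (1.22, SE 0.296, adjusted p = 0.00471, against M-CSF and -1.196, SE 0.248, adjusted p = 0.00243, for peptide against CAM), with DESeq2 at adjusted p = 0.0719 and 0.0549. The ERM proteins link filaments to the membrane, and their genes showed 3 patterns. Ezr, ezrin, was at 26, 85.7, 69.7 and 74.5 CPM, higher in every activated library than in M-CSF (1.72, SE 0.205, in CAM) and not past the threshold for peptide against CAM. Msn, moesin (ENSMUSG00000031207, chromosome X, 96096042 to 96168552), the main ERM protein of leukocytes, was at 638, 2031, 1253 and 1228 CPM, with log2 fold changes of 1.67 (SE 0.222) and -0.71 (SE 0.183, adjusted p = 0.00887). Rdx was at 119, 126, 264 and 263 CPM, with no call between M-CSF and CAM (0.08, SE 0.188) and higher with the peptide (1.07, SE 0.17, adjusted p = 0.000415, against CAM). Of the 31-base stretches, Rdx shared 0% and Msn 1.91% with other genes.

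**Figure D4:**
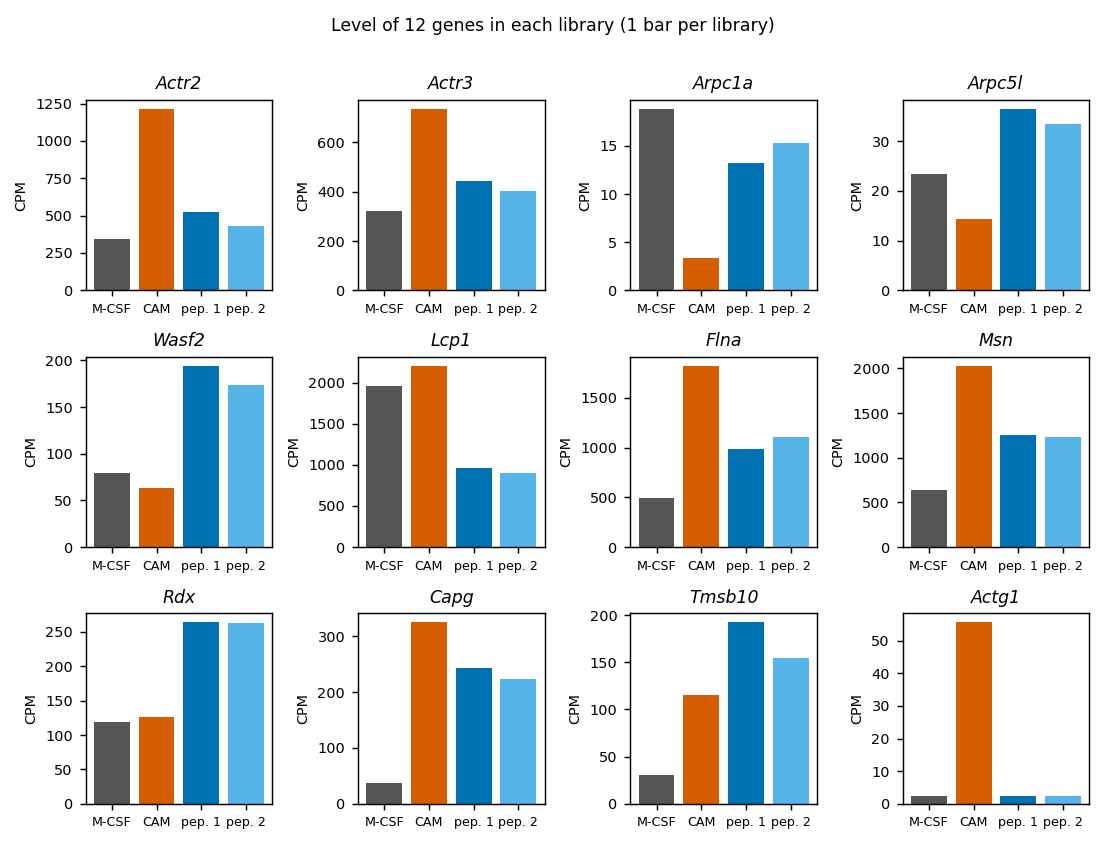
Level in CPM (vertical axis, from 0) of 12 genes, with 1 bar for each library and no error bar. Actr2, Actr3, Flna and Msn are highest in CAM, Wasf2 and Rdx are highest in both peptide libraries, and Lcp1 is lowest in both peptide libraries.

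Other genes of the actin system, taken from lists of related proteins, gave the following counts of tested members that rose and fell. For CAM against M-CSF, where 21.4% and 23% of all tested genes rose and fell, they were 7 and 3 of 13 formins and tropomyosins, 5 and 2 of 14 integrins and adhesion linkers, 4 and 3 of 12 WAVE complex genes and Arp2/3 regulators, 3 and 4 of 10 myosins, 4 and 2 of 9 further monomer binders, and 1 and 1 of 5 WASH complex genes. Fmnl2, a formin that extends filaments at the cell edge, was at 11 CPM in M-CSF, 127 in CAM, and 44.7 and 51.9 with the peptide (3.54, SE 0.232). For peptide against CAM (20.6% and 17.1% of all tested genes) the counts in the same order were 1 and 4, 3 and 3, 5 and 3, 4 and 1, 2 and 4, and 0 and 3. Cap1, which recycles actin monomers, was at 103, 390, 102 and 62.4 CPM (-2.25, SE 0.223, for peptide against CAM), and Cyfip2, a subunit of the WAVE complex to which Wasf2 belongs, at 7.84, 10.7, 62.2 and 43.8 CPM (2.30, SE 0.28). Abi2, of the same list as Cyfip2, went the other way, at 7.51, 6.71, 1.03 and 1.66 CPM (-2.31, SE 0.461, for peptide against CAM). For peptide against M-CSF (22.1% and 19%) they were 5 and 1, 6 and 2, 6 and 1, 5 and 2, 3 and 1, and 1 and 2. Itgal, the αL chain of the leukocyte integrin LFA-1, was at 36.4, 1304, 284 and 248 CPM. Its log2 fold changes were 5.16 (SE 0.243) for CAM against M-CSF and -2.30 (SE 0.168) for peptide against CAM. Of the same list, Bcar1 was at 0.0648, 40.4, 13.15 and 9.72 CPM, and Tns1, tensin, at 112, 8.66, 11.9 and 9.31 CPM (-3.69, SE 0.277, for CAM against M-CSF). The muscle actin Acta2 was at 0.831 to 2.27 CPM.

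**Figure D5:**
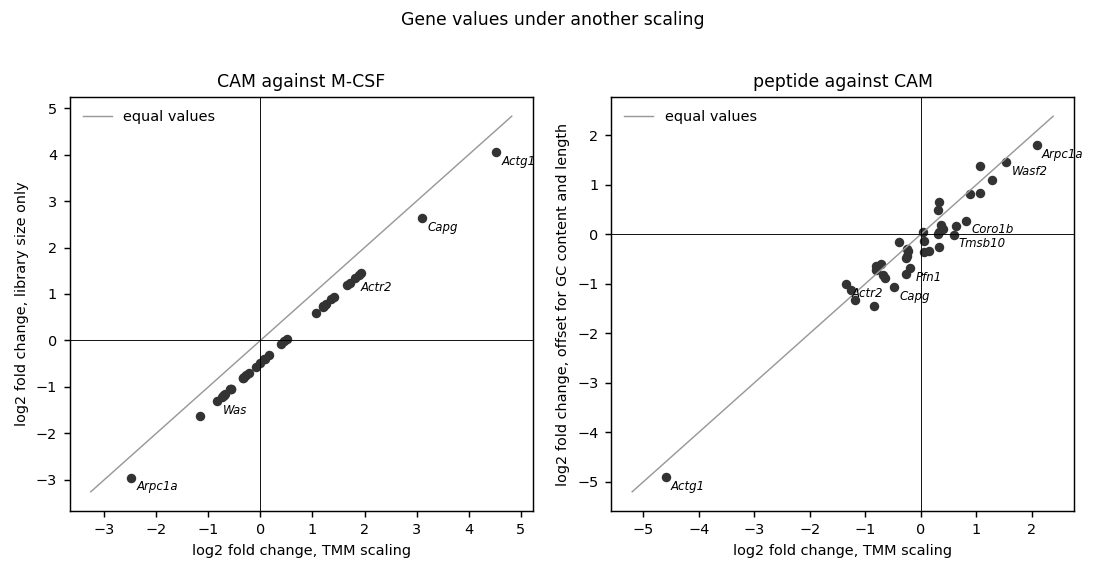
Log2 fold change of each actin gene with TMM scaling (horizontal axis) against another setting (vertical axis), library size only for CAM against M-CSF (left) and an offset for GC content and length for peptide against CAM (right), with a line of equal values. All points at left are shifted down by nearly the same amount, and at right Tmsb10 moves from 0.59 to -0.01.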

How the data were processed

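Messenger RNA of 4 samples was sequenced, with libraries made by a directional kit per the labels' protocols. A table of estimated counts by gene, without scaling, was deposited by the authors; 61.3% to 69.3% of a library's values are whole. The tools named are kallisto and StringTie, and the build mm10, per the submitters' processing notes. How transcripts were summed to genes, the annotation release and the strand setting are not stated there. The deposited table also gives 1 transcript length per gene, a number of bases that enters no test, and 255 of its 32617 rows lie outside the primary chromosomes. Estimated counts were rounded. Samples were grouped by title, and the peptide libraries carry the numbers of their column headers. Only 1 peptide title has a number, so the other peptide column was matched to its sample by elimination.

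filterByExpr in edgeR 4.0.16 (R 4.3.3) kept 14104 genes. CPM are scaled to the TMM-adjusted library size (factors 1.24, 0.894, 0.906 and 0.993). Genes were tested with edgeR by quasi-likelihood on all 4 libraries in 3 groups, with Benjamini-Hochberg adjustment over all tested genes. Unless another setting is named, calls are those of this fit with TMM scaling. The peptide pair gives the 1 residual degree of freedom; edgeR's prior held 11.8 and the biological coefficient of variation was 0.161. Log2 fold changes carry a prior count of 0.125, and an SE is |log2 fold change| over the root of the F statistic. The procedure was tested on simulated counts. It recovered 20% of 2-fold and 94% of 4-fold changes for CAM against M-CSF, and 30% and 99% for peptide against CAM. A gene not past the threshold is thus not shown to be unchanged. Alternatives were RLE size factors, library size only, no filter, DESeq2 1.42.0, the compared groups only, leaving out a peptide library, summing the rows that share over 10% of the 31-base stretches of Actb or Actg1 and the patch row of Coro1b (no such sum was run for other genes), and an offset for GC content and length (mgcv 1.9.3). All 40 genes are reported. Related genes are named from those at the top or bottom of their list by log2 fold change past the threshold. Rows that share sequence were named with over 100 counts and over 10% of a gene's stretches; the pseudogenes and Acta2 were named after their values were seen. The genes and lists were chosen with earlier results of these data known. A few further results are not reported here.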

Additional observations from a re-analysis of the deposited data

How the results depend on the processing

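Each lone library, M-CSF or CAM, decides every value it enters, and 1 residual degree of freedom limits all tests; genes at few counts, such as Fscn1, Arpc5 and Wasl, are limited by depth. No paired analysis was possible because the M-CSF and CAM groups have 1 library each and the labels give no shared replicate numbers. Counts of called actin genes moved by over 1.5 times as follows. For CAM against M-CSF, 9 fell, against 16 with library size only, 5 without a filter on low counts, 3 with DESeq2 and 2 with the offset for GC content and length. For peptide against CAM, 10 rose, against 6 with that offset. For peptide against M-CSF, 5 fell, against 11 with library size only and 3 with DESeq2. With library size only, the genes at least 2-fold higher or lower went from 14 and 3 to 7 and 12 in CAM against M-CSF, and from 9 and 3 to 5 and 5 in peptide against M-CSF. Counts that rose in CAM (14) or fell with the peptide (8) stayed within 1.5 times under every alternative run. Genes past the threshold under either setting that turned direction were Actb summed with the row of Lrrc58 (0.62 in the comparison of CAM with M-CSF, -0.28 in that of peptide with CAM), Coro1b with library size only (-0.40 for CAM against M-CSF, against 0.08) and, with the offset, Evl (0.045 for CAM against M-CSF) and Tmsb10 (-0.00622 for peptide against CAM). Values called under neither setting changed sign in 21 cases, leaving out a library aside, of which 4 were with the offset for peptide against CAM (Cfl1, Evl, Gsn and Zyx) and 4 and 7 with library size only for CAM and for peptide against M-CSF, among them Lcp1 and Rdx in CAM against M-CSF with library size only (-0.31 and -0.39). With library size only, all values of a comparison shift by nearly the same amount, which turned values smaller than that shift. The cause of the other sign changes was not tested. Calls present in every tested alternative, sums of rows aside, numbered 14 of 23 for CAM against M-CSF, 12 of 18 for peptide against CAM and 14 of 18 for peptide against M-CSF. Leaving out 1 peptide library, which leaves no test, turned the sign of 0 of the 18 called genes in either peptide comparison. A call already rests on the agreement of that pair, so this could hardly come out otherwise. Leaving out a library moved Coro1a most, by 0.625 against CAM. The genes at least 2-fold higher then numbered 5 to 6 against CAM and 8 to 12 against M-CSF, and those lower 3 to 5 and 3. The offset and the sum for Coro1b were chosen after seeing the data. Genes not called with TMM scaling also passed under an alternative. In CAM against M-CSF, library size only also added Arpc1b, Arpc4, Wasf2, Vcl, Tln1 and Actn4 (lower) and the offset Pfn1 and Coro1b (higher). The fit without a filter on low counts added Fscn1 (higher), which rests on few counts. For peptide against CAM, library size only added Arpc1b, Capzb and Evl (higher) and the offset Pfn1, Vasp, Coro1a and Coro1c (lower). RLE size factors also added Coro1a and Coro1c (lower). For peptide against M-CSF, library size only added Arpc1a, Arpc4, Was, Capzb, Evl and Actn1 (lower). RLE size factors and the fit on the compared groups only each added Arpc5l (higher) and Actn1 (lower).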
